A study of Mus musculus with 3 samples.

Results

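Mature microRNAs (miRNAs) were counted in mouse preosteoclasts (pOC) and mature osteoclasts (mOC), and the comparison described here is mOC over pOC, read by the arm of the hairpin, by the leading or minor role of that arm, by abundance and by the host gene. A miRNA was included when it had at least 50 counts in either library, which 337 of the 899 listed miRNAs did (37.5%). They covered 99.93% of the pOC library and 99.94% of the mOC library. Both groups came from the bone marrow of C57BL/6 mice aged 11 weeks, with no genetic change named in the labels. Floating marrow cells were collected after 24 h of culture and given the macrophage growth factor M-CSF at 50 ng/mL for 72 h. The resulting macrophages then received M-CSF at 30 ng/mL and the osteoclast-inducing cytokine RANKL at 100 ng/mL, for 24 h in pOC and for 72 h or longer in mOC. Both were treated with 500 µM alendronate, a bisphosphonate, for 12 h to make them shed apoptotic bodies, whereas the series title speaks of exosomes, and which material was sequenced is not given in the sources used here. With a single library on each side, the differences compare these 2 libraries, replicates are lacking and p-values were not computed. All intervals are 95% intervals that cover counting error only.

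A miRNA gene is transcribed as a longer RNA that folds into a hairpin, and the nuclease Dicer cuts out a short duplex of the 5′ arm (-5p) and the 3′ arm (-3p). An Argonaute protein keeps 1 strand of the duplex and the other is mostly degraded, a choice known to depend on the stability of the duplex ends and on the first base, with U favoured. Bases 2 to 8 of the kept strand, the seed, select the messenger RNAs that are repressed, so the arms of 1 hairpin have different targets. Many hairpins lie inside introns of protein-coding genes or in noncoding host transcripts and are made together with them. In osteoclast formation, macrophages fuse into multinucleated cells that resorb bone, and miRNAs such as miR-21, miR-223 and miR-155 have been described as regulators of it.

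The hairpins below are those on which the arm results turn. let-7d had a different leading arm in each library. Among hairpins with over 1000 counts on each arm in both libraries, miR-142a had the largest shift. In miR-125a and miR-193a the 2 arms moved in opposite directions, toward a leading -5p arm and toward a leading -3p arm. In miR-130b the minor -5p arm was higher in mOC and the leading -3p arm was not called. Letters are from the RefSeq annotation of GRCm38.p6, written 5′ to 3′. In the mature sequences capitals mark the seed, and in the hairpins capitals mark both mature arms.
let-7d-5p: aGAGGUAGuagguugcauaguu
let-7d-3p: cUAUACGAccugcugccuuucu
let-7d hairpin: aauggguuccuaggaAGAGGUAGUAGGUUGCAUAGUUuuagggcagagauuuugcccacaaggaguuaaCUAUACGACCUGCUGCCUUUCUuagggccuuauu
miR-142a-5p: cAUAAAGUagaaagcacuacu
miR-142a-3p: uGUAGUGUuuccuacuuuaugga
miR-142a hairpin: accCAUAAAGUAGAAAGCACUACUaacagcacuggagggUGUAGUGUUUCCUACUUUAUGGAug
miR-125a-5p: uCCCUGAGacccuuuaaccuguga
miR-125a-3p: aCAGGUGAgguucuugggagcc
miR-125a hairpin: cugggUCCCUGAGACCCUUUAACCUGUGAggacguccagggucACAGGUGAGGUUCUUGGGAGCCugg
miR-130b-5p: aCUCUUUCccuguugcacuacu
miR-130b-3p: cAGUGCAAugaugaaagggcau
miR-193a-5p: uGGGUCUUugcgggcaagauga
miR-193a-3p: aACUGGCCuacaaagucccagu

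The let-7d hairpin lies at chr13:48536012-48536114 on the minus strand, inside the noncoding gene 6720427I07Rik. The miR-142a hairpin lies at chr11:87756864-87756927 on the plus strand, inside the noncoding gene Mir142hg. The miR-125a hairpin lies at chr17:17830812-17830879 on the plus strand, over an exon of the protein-coding gene Spaca6. Seeds were compared among the 306 included miRNAs with a RefSeq sequence, and the other 31 could not be compared. The seed of let-7d-5p was shared by 10 of the 306 and that of miR-125a-5p by 3 (miR-125a-5p, miR-125b-5p and miR-351-5p). No other of the 306 had the seed of let-7d-3p, of either arm of miR-142a, of miR-125a-3p or of miR-130b-5p.

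Levels are given as CPM, counts scaled to the library totals of 5430426 in pOC and 7017707 in mOC. A miRNA was called higher or lower in mOC when the fold was at least 2 and its interval excluded 1. Of the 337, 40 were higher (11.9%) and 35 were lower (10.4%), with a median log2 ratio of 0.13. Over all 899 listed miRNAs the shares were 5.56% higher and 8.45% lower. The balance of directions depended on how the libraries were scaled: with the constants behind the authors' own normalised values, all log2 ratios moved by 0.27 and the split became 64 higher and 26 lower. The authors' deposited fold changes did not carry that split. The 75 included miRNAs called from those fold changes and their p-values all had the same call as with the totals. The minimum itself also acts on direction, because 50 counts are 9.21 CPM in pOC but 7.12 CPM in mOC. Of the 22 miRNAs that passed by pOC alone, 18 were lower, of the 26 that passed by mOC alone, 8 were higher, and among the 289 with 50 counts in both, 32 were higher and 17 lower. At the edge of the rule, 7 miRNAs had 50 to 54 counts in their better library, among them miR-2137 (54 in pOC and 24 in mOC) and miR-3474 (51 and 31), which were both lower. The 10 with 45 to 49 counts also held 2 lower ones.

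**Figure D1:**
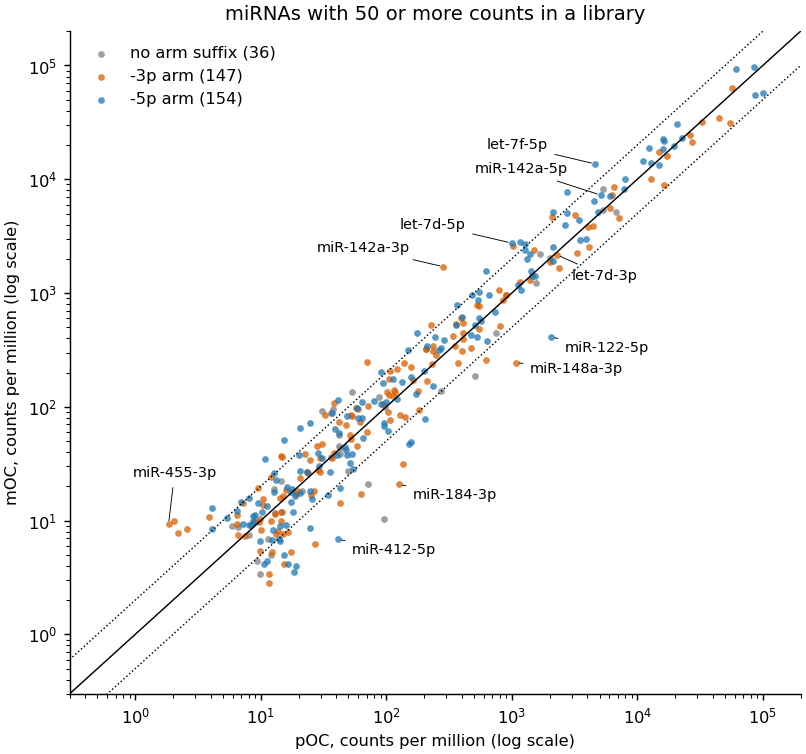
Level of each of the 337 miRNAs in the pOC library (x axis) and the mOC library (y axis), both in CPM on log scales, coloured by arm. The solid line marks equal levels and the dotted lines a 2-fold difference; 40 miRNAs were called higher in mOC and 35 lower, and miR-142a-3p stands above the upper line while miR-142a-5p lies inside it.

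Arms named -5p lay slightly further toward mOC than arms named -3p. The 154 -5p miRNAs had a median log2 ratio of 0.20, with 21 higher and 16 lower. The 147 -3p miRNAs had a median of 0.09, with 15 higher and 13 lower, and that median turned to -0.01 with a minimum of 10 counts in place of 50. The 36 names without an arm suffix had a median of 0.00, with 4 higher and 6 lower. As a share of all counts, -5p arms held 59.3% in pOC and 63.3% in mOC, and -3p arms 38.1% and 34.0%.

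That gap between arms was widest among the most abundant miRNAs. At a mean of 1000 CPM or more, the 43 -5p miRNAs had a median log2 ratio of 0.34 with 33 of them above 0, and the 27 -3p miRNAs a median of -0.10 with 9 above 0. Of the -5p miRNAs in this class, 7 were higher and 1 was lower, and of the -3p miRNAs 2 were higher and none lower. Of those 7, let-7a-5p, let-7d-5p, let-7f-5p and miR-98-5p carried the let-7 seed. Members of that family hold back growth and pluripotency genes, and their near-identical sequences mean that reads could be split between names.

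Of the 10 included miRNAs with a RefSeq sequence that held the let-7 seed, 5 were higher in mOC. let-7f-5p, the member with the largest ratio, had 4590 CPM in pOC and 13651 CPM in mOC, a fold of 2.97 (2.93 to 3.02). let-7d-5p had 998 and 2749 CPM, and let-7e-5p had 176 and 445 CPM. let-7a-5p had 1279 and 2724 CPM, and miR-98-5p had 1164 and 2810 CPM. Among the most abundant members, let-7i-5p had 61120 and 93530 CPM (log2 ratio 0.61), and let-7g-5p had 20783 and 30498 CPM (log2 ratio 0.55). The remaining 3, let-7b-5p, let-7c-5p and let-7k, had log2 ratios of 0.25, 0.47 and -0.13.

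A hairpin's arm with the higher mean CPM over both libraries was taken as its leading arm and the other as its minor arm. By that rule 145 of the 337 were leading arms and 81 minor arms, 75 had no listed partner under the same name, and 36 had no suffix. Minor arms lay further toward mOC than leading arms. Their median log2 ratio was 0.28, 57 of 81 lay above 0, 15 were higher and 3 lower. Leading arms had a median of 0.09, with 13 higher and 16 lower. Minor arms are scarce and sit close to the minimum, and 11 of the 81 passed it by mOC alone against 1 by pOC alone. With 50 counts required in both libraries, the 69 minor arms left had a median of 0.24 with 8 higher and 2 lower, and the 129 leading arms a median of 0.12 with 12 higher and 6 lower. Together the minor arms made up 1.07% of the pOC library and 1.53% of the mOC library.

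On each side of the hairpin the minor arms had the larger median. The 44 minor -3p arms had a median of 0.25, with 7 higher and none lower, against 0.04 for the 69 leading -3p arms, with 5 higher and 10 lower. Of those 44, 7 passed the minimum by mOC alone and 0 by pOC alone, against 1 and 6 of the 69, so the minimum acts on this contrast. The 37 minor -5p arms had a median of 0.33, with 8 higher and 3 lower, against 0.15 for the 76 leading -5p arms, with 8 higher and 6 lower. Of those 37, 4 passed by mOC alone and 1 by pOC alone, against 4 and 5 of the 76. Of the 10 leading -3p arms that were lower, 6 came from the imprinted Dlk1-Dio3 region described with the host genes.

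The 3 minor arms that were lower were miR-144-5p, miR-199b-5p and miR-27a-5p, of which miR-144-5p alone was lower with the authors' constants. Among the 15 that were higher, miR-142a-3p and let-7d-5p were the only ones above 100 CPM on average, and 7 lay under 20 CPM. miR-455-3p had 10 counts in pOC and 65 in mOC, or 1.84 and 9.26 CPM, a fold of 5.03 (2.57 to 11.0). Its leading partner miR-455-5p, from the same intron of the collagen gene Col27a1, had 491 and 1430 counts, a fold of 2.25 (2.03 to 2.50).

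**Figure D2:**
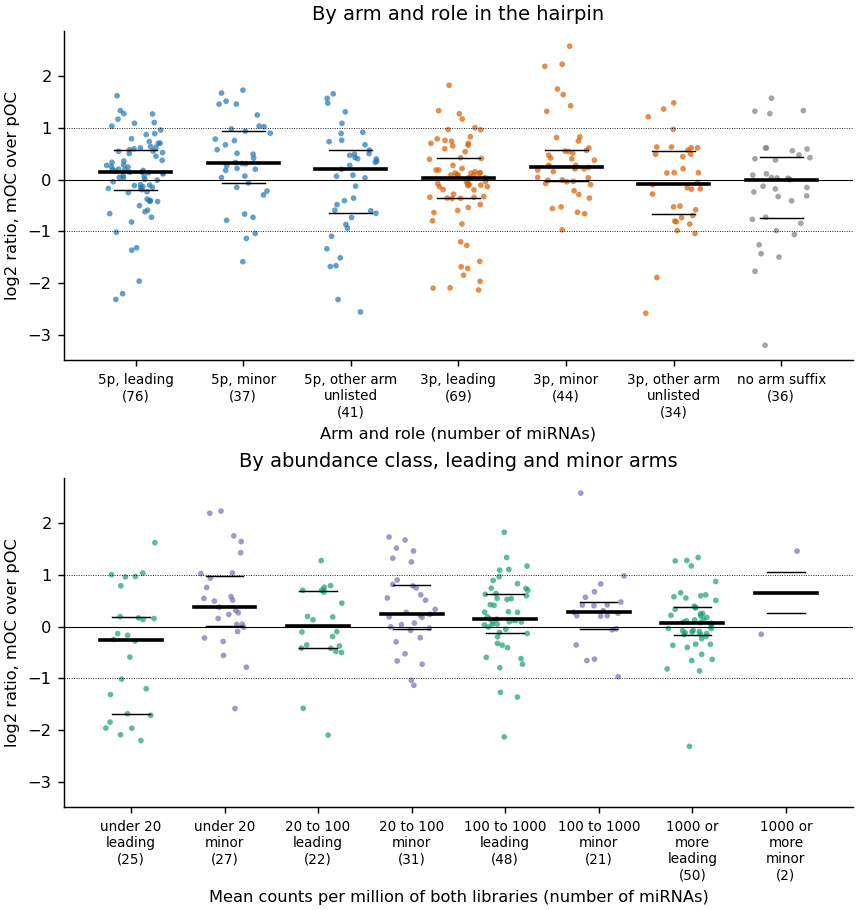
log2 ratio of mOC over pOC for each miRNA, by arm and role in the hairpin (upper panel) and by class of mean CPM for leading and minor arms (lower panel). Points are miRNAs, thick bars medians, thin bars quartiles and dotted lines a 2-fold difference; the medians of minor arms lie above those of leading arms on both sides of the hairpin, at 0.33 against 0.15 for -5p and 0.25 against 0.04 for -3p.

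The share of a hairpin's counts on its -5p arm does not depend on how libraries are scaled, and it was compared over the 133 hairpins that had both arms listed, at least 50 summed counts in each library and at least 1 included arm. A hairpin was called shifted when the ratio of -5p to -3p counts differed at least 2-fold between the libraries and the interval of that odds ratio excluded 1. Of the 133, 19 were shifted toward -5p in mOC (14.3%) and 13 toward -3p (9.77%). In 20 of these 32 the shift was toward the minor arm and in 12 toward the leading arm. Over all 133, the minor arm's share was larger in mOC in 70 and smaller in 63, beside the 57 of 81 included minor arms whose log2 ratio lay above 0. Arm use was close in most hairpins. The median absolute change of share was 1.02 percentage points, 66 changed by less than 1 point and 17 by more than 10. In 48 hairpins a single arm held over 99% of the counts in both libraries.

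The calls are divided here by leading arm. Of the 63 hairpins led by -3p, 12 were shifted toward -5p and 5 toward -3p. Of the 70 led by -5p, 7 were shifted toward -5p and 8 toward -3p. The median -5p share was 56.1% in pOC and 59.8% in mOC.

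**Figure D3:**
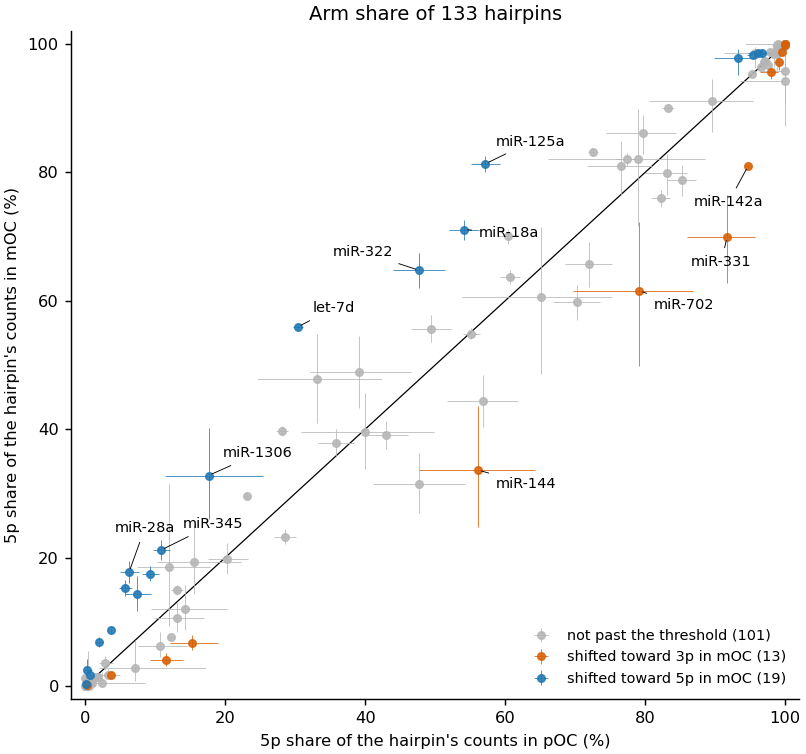
Share of each hairpin's counts on the -5p arm in pOC (x axis) and mOC (y axis), in percent, for 133 hairpins with exact 95% binomial intervals. Points on the line have the same share in both libraries; let-7d went from 30.4% to 55.9% and miR-125a from 57.2% to 81.4%, while miR-142a went from 94.7% to 81.0%.

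In 5 hairpins the arm with more counts differed between the libraries. let-7d had 5420 -5p and 12435 -3p counts in pOC and 19291 and 15195 in mOC. Its -5p share was 30.4% (29.7 to 31.0) in pOC and 55.9% (55.4 to 56.5) in mOC, an odds ratio of 2.91 (2.80 to 3.03). The level of let-7d-3p hardly differed, at 2290 and 2165 CPM, while let-7d-5p was 2.75-fold higher (2.67 to 2.84). The leading let-7d sequence in mOC was therefore the one with the let-7 family seed GAGGUAG, and in pOC the one with the seed UAUACGA.

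miR-144, a hairpin known from red cell precursors, had 83 -5p and 65 -3p counts in pOC and 35 and 69 in mOC. Its -5p share was 56.1% (47.7 to 64.2) and 33.7% (24.7 to 43.6). miR-322, the mouse counterpart of human miR-424, went the other way, from 47.7% (44.0 to 51.4) to 64.7% (62.0 to 67.4), on 346 and 379 counts in pOC and 775 and 422 in mOC. The pOC interval of both hairpins included 50%, so which arm led there was not resolved at this depth. Beside miR-144, the summed level of 5 erythroid markers, its arms among them, went from 842 to 299 CPM, and the part of red cells in this shift was not tested.

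miR-3068 and miR-324 had a different leading arm in each library without passing the 2-fold odds. The -5p share of miR-3068 was 56.8% (51.7 to 61.8) in pOC and 44.3% (40.3 to 48.4) in mOC, with neither interval reaching 50%. That of miR-324 was 49.4% (46.6 to 52.2) and 55.7% (53.6 to 57.7), and its pOC interval included 50%. let-7d and miR-3068 were the 2 hairpins of the 5 whose leading arm was resolved in both libraries.

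Among hairpins shifted toward -3p, miR-142a had the most counts on its scarcer arm. This hairpin is characteristic of blood cells, and both of its arms are known to act as miRNAs. It had 27762 -5p and 1545 -3p counts in pOC and 50954 and 11961 in mOC, so the -5p share went from 94.7% (94.5 to 94.98) to 81.0% (80.7 to 81.3), an odds ratio of 0.24 (0.22 to 0.25). miR-142a-3p went from 285 to 1704 CPM, a fold of 5.99 (5.68 to 6.32), which was the highest log2 ratio of all 337 miRNAs. The lowest, -3.20, was further from 0 and belonged to a name without an arm suffix. miR-142a-5p went from 5112 to 7261 CPM, a fold of 1.42.

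miR-331, from the Vezt gene, had the smallest odds ratio of the shifted hairpins. It had 133 -5p and 12 -3p counts in pOC and 128 and 55 in mOC, an odds ratio of 0.21 (0.10 to 0.42). miR-20a, of the growth-promoting miR-17-92 cluster, had 11 -3p counts against 87073 -5p counts in pOC and 69 against 129688 in mOC. Its odds ratio of 0.24 (0.11 to 0.45) therefore left the -5p share above 99.9% in both libraries. miR-1981 had an odds ratio of 0.30 (0.13 to 0.61) and miR-1839 one of 0.34 (0.26 to 0.44), also with the -5p arm above 97% of the counts in both.

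miR-193a moved toward its leading -3p arm. It had 86 -5p and 662 -3p counts in pOC and 64 and 1523 in mOC, a -5p share of 11.5% (9.30 to 14) and 4.03% (3.12 to 5.12). Neither arm reached 2-fold when scaled to the totals, with log2 ratios of -0.79 for -5p and 0.83 for -3p. With the authors' constants the -3p arm had 1.10. miR-223, a hairpin characteristic of myeloid cells, also moved toward its leading -3p arm, with 69 -5p and 382 -3p counts in pOC and 126 and 1753 in mOC. Its -3p arm was 3.55-fold higher in mOC (3.18 to 3.98) and its -5p arm 1.41-fold, an odds ratio of 0.40 (0.29 to 0.55). The remaining hairpins shifted toward -3p were miR-99a, miR-27a, miR-455, miR-702 and miR-199b, besides miR-144. The -3p counts of miR-199b were equal to those of miR-199a-3p in both libraries and the mature sequences are identical, so this ratio mixes both genes.

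Among the hairpins shifted toward -5p, miR-125a had 1334 -5p and 999 -3p counts in pOC and 2875 and 659 in mOC. Its -5p share went from 57.2% (55.1 to 59.2) to 81.4% (80.0 to 82.6), an odds ratio of 3.27 (2.90 to 3.68). Neither arm reached 2-fold when scaled to the totals: miR-125a-5p went from 246 to 410 CPM and miR-125a-3p from 184 to 93.9 CPM. The log2 ratio of miR-125a-5p was 1.01 with the authors' constants, and that of miR-125a-3p was -1.03 with totals that leave out the 5 most abundant miRNAs.

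miR-130b had 59 -5p and 2993 -3p counts in pOC and 246 and 3372 in mOC, an odds ratio of 3.70 (2.76 to 5.02). miR-28a, from an intron of Lpp, had 83 and 1246 counts in pOC and 359 and 1665 in mOC, an odds ratio of 3.24 (2.51 to 4.21). miR-362, from an intron of Clcn5, had 135 and 2238 counts in pOC and 502 and 2790 in mOC, an odds ratio of 2.98 (2.44 to 3.66). In these 3 the leading -3p arm stayed within 0.20 of 0 on the log2 scale while the minor -5p arm was 2.88-fold to 3.35-fold higher.

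miR-378a had 201 -5p counts in pOC and 620 in mOC beside 243164 and 244567 -3p counts, an odds ratio of 3.07 (2.61 to 3.61) that left the -3p arm above 99% in both. The remaining hairpins shifted toward -5p were let-7e, miR-18a, miR-30b, miR-126a, miR-140, miR-151, miR-345, miR-351, miR-582 and miR-1306. The deepest of these, miR-140, had 2634 -5p and 69597 -3p counts in pOC and 6719 and 71122 in mOC, an odds ratio of 2.50 (2.38 to 2.61). miR-34c rested on 19 and 6 counts of its -3p arm, and its odds ratio of 3.15 had an interval of 1.19 to 9.79. miR-500 had a larger odds ratio, but on 1 -5p count in pOC and 14 in mOC, with an interval of 2.28 to 640.2. Nearest to the thresholds, miR-322 (odds ratio 2.01) and miR-27a (0.49) lay just inside and miR-664 (0.504, 0.356 to 0.715) and miR-146a (0.51, 0.32 to 0.79) just outside.

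**Figure D4:**
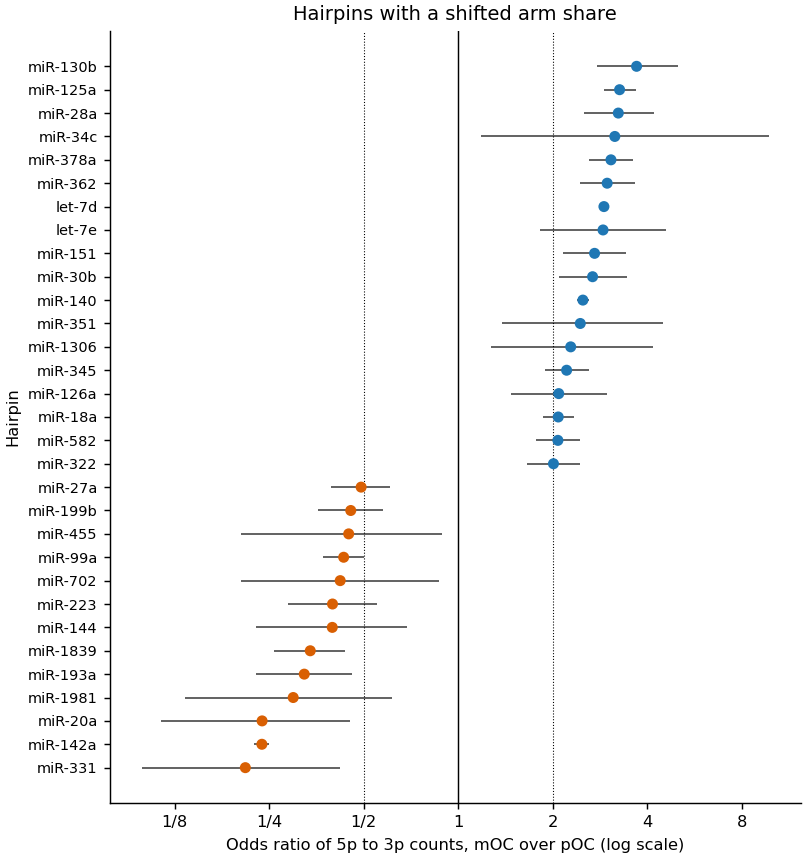
Odds ratio of -5p to -3p counts, mOC over pOC, on a log scale with 95% intervals, for 31 of the 32 shifted hairpins; miR-500 (1 and 14 -5p counts) is left out because its interval reaches 640.2. Values right of 1 are shifted toward -5p and values left of 1 toward -3p, and the dotted lines mark the 2-fold threshold.

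When both arms of a hairpin were included, their levels could be set side by side. Of 81 such hairpins, 51 had both arms on the same side of 0. In 2 hairpins both arms received the same call, miR-32 and miR-455, which were higher on both arms. In 20 only 1 arm was called, in 59 neither, and in none were the arms called in opposite directions. Across these hairpins the correlation of the arms' log2 ratios was 0.06 (Pearson's r) and -0.02 (Spearman's rho), a description over 81 hairpins that share the same 2 libraries and include arms of low counts. The median gap between arms was 0.64 on the log2 scale.

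Leading and minor arms differed in their first base, a feature that the selection did not use. Of the 114 hairpins with both mature sequences in the reference, the leading arm began with U in 60 (52.6%) and the minor arm in 23 (20.2%). Among the shifted hairpins with both sequences, the arm that gained share began with U in 9 of 24 and the arm that lost share in 4 of 24. let-7d-5p and let-7d-3p begin with A and C, whereas miR-142a-3p, which gained, begins with U and miR-142a-5p with C. The median length was 22 bases for leading and for minor arms.

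Calls were next divided by abundance, which also sets the width of the intervals. Of the 90 with a mean under 20 CPM, 10 were higher and 19 lower, with a median log2 ratio of -0.03. In this class 21 passed the minimum by pOC alone and 26 by mOC alone, so the minimum acts on the direction of its calls. Of its 19 lower miRNAs, 8 came from the Dlk1-Dio3 region. The 88 from 20 to 100 CPM had a median of 0.16 with 14 higher and 10 lower, and the 83 from 100 to 1000 CPM a median of 0.21 with 7 higher and 5 lower. The 76 at 1000 CPM or more held 96.6% of the pOC library and 96.1% of the mOC library, and had a median of 0.10 with 9 higher and 1 lower.

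The single lower miRNA in the highest class was miR-122-5p, a liver miRNA also found in serum, at 2042 CPM in pOC and 410 CPM in mOC, 4.98-fold lower (4.78 to 5.19). With it the summed level of 4 liver or serum markers went from 3842 to 1197 CPM. Of these, miR-192-5p was not called (log2 ratio -0.73). miR-194-5p went the other way (0.76), not called with the totals but higher with the authors' constants. The highest -3p value of that class belonged to miR-210-3p, which hypoxia is known to induce, at 1023 and 2582 CPM, a fold of 2.52 (2.45 to 2.60). In the class of 100 to 1000 CPM, miR-148a-3p had 1074 and 245 CPM and was 4.39-fold lower (4.16 to 4.63). In the same class miR-486b-5p, a red cell miRNA whose reads may be shared with its near-identical copy miR-486a-5p, had 156 and 48.6 CPM and was 3.21-fold lower (2.83 to 3.65).

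In the class of 20 to 100 CPM the extremes among suffixed names were miR-28a-5p (log2 ratio 1.73) and miR-16-2-3p (1.49) on the higher side, and miR-412-5p (-2.56) and miR-184-3p (-2.58) on the lower side. Under 20 CPM they were miR-491-5p (1.62) and miR-455-3p (2.23), and miR-493-5p (-2.32) and miR-409-3p (-2.09). miR-409-3p, miR-412-5p and miR-493-5p all lie in the Dlk1-Dio3 region.

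The 10 most abundant of the 133 hairpins with an arm share kept a nearly single-armed pattern. Hairpins whose arms are listed under different name stems, such as miR-24 and miR-92a, were not ranked. miR-21a had 463961 -5p and 155 -3p counts in pOC and 678272 and 196 in mOC, the largest total of the 133. miR-146a-5p, which restrains inflammatory signalling through NF-kB, had 100669 and 57072 CPM, 1.76-fold lower (1.76 to 1.77) and so not called. Of the 10, miR-99a and miR-378a were shifted by odds, each toward an arm that stayed under 1% of the counts. miR-30a had the largest minor share of the 10, with its -5p arm at 97.6% and 96.8%.

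Hairpins were sorted by the annotated gene that contained them on the same strand, for the 306 of 337 miRNAs that matched RefSeq by name. The 117 in introns of protein-coding genes had a median log2 ratio of 0.21, with 20 higher and 8 lower. The 35 over exons of protein-coding genes had a median of 0.14, with 4 higher and none lower. Any overlap with an exon of any annotated transcript of the gene counted as exon. Neighbours can therefore fall in different classes, as miR-25 and miR-93 (exon) and miR-106b (intron) of Mcm7 did. The 55 in noncoding genes had a median of 0.19, with 7 higher and 6 lower. The 84 with no host on their strand had a median of -0.02, with 6 higher and 15 lower. Another 15 had copies in different classes. The minimum acts on the direction of these calls as well. Among the intronic miRNAs 14 passed it by mOC alone and 6 by pOC alone, and over exons 3 and 0. In noncoding genes 3 passed by mOC alone and 5 by pOC alone, and with no host 6 and 10.

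The imprinted Dlk1-Dio3 region on chromosome 12, whose miRNAs are made from the maternal chromosome, accounted for 12 of the 35 lower miRNAs. All 12 of its included miRNAs were lower, 9 of them also with the authors' constants, with log2 ratios from -2.56 to -1.04 and a median of -1.87, and 8 of them passed the minimum by pOC alone. The summed level of 9 stromal markers, miR-127-3p of this region among them, went from 1750 to 1657 CPM, with 5 of the 9 lower. Most of that sum came from miR-199a-3p and miR-152-3p, which were not called, so it says little about the scarcer stromal markers. The region's most abundant member, miR-369-3p, went from 625 to 259 CPM, 2.41-fold lower (2.28 to 2.56). The rest had at most 344 counts in pOC, as did miR-381-3p with 344 and 119. Without the region, the 76 miRNAs with no host had a median of 0.04 with 6 higher and 7 lower, and the 51 in noncoding genes a median of 0.24 with 7 higher and 2 lower.

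**Figure D5:**
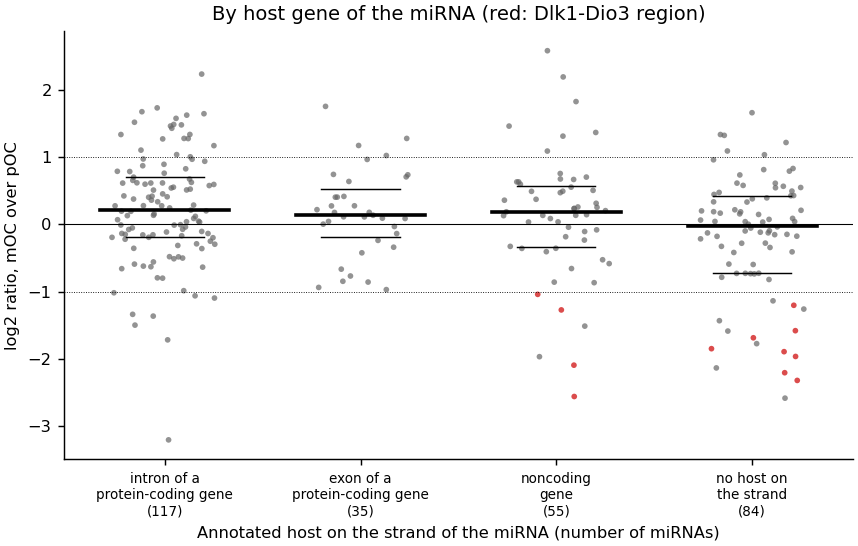
log2 ratio of mOC over pOC for each miRNA by the annotated host on its strand, with miRNAs of the Dlk1-Dio3 region in red. Thick bars are medians, thin bars quartiles and dotted lines a 2-fold difference; with scaling to the totals, all 12 red points lie below -1.

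Hairpins that share a host could be compared with each other. Spaca6 contains let-7e, miR-125a and miR-99b, and all 3 had an odds ratio above 1: 2.89 (1.82 to 4.59) for let-7e, 3.27 for miR-125a, and 1.87 (1.78 to 1.97) for miR-99b, which stayed under the threshold. Its 3 included -5p arms had a median log2 ratio of 0.74 and its 2 included -3p arms one of -0.81. Clcn5 contains miR-362 and miR-500, both shifted toward -5p, and also miR-501, miR-188 and miR-532, whose intervals included 1. Their odds ratios were 1.54 for miR-501, 0.74 for miR-188 and 0.76 (0.52 to 1.11) for miR-532, the deepest hairpin of this host. Mir17hg, the host of the miR-17-92 cluster, had miR-18a shifted toward -5p (odds ratio 2.08, 1.86 to 2.33) and miR-20a toward -3p, with miR-17 at 1.08 (0.97 to 1.20). Mcm7 contains miR-25, miR-93 and miR-106b, of which none was shifted.

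The let-7d host 6720427I07Rik also holds copies of let-7a and let-7f. Its 2 included -5p arms, let-7a-5p and let-7d-5p, were both higher, and its 3 -3p arms had log2 ratios of 0.63 (let-7a-1-3p), -0.08 (let-7d-3p) and -0.18 (let-7f-1-3p). let-7a-5p has further copies elsewhere, and the counts of let-7a-1-3p were equal to those of let-7c-2-3p in both libraries. Ttll10, with miR-200a, miR-200b and miR-429, had 3 included arms, all -3p, with log2 ratios of 1.005, 1.28 and 0.97. These epithelial miRNAs were scarce, at 7.18 to 14.7 CPM in pOC and 14.2 to 35.9 CPM in mOC.

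A list of 29 hairpins described in osteoclasts or macrophages was followed through both arms. Of these, 27 were in the table, 40 of their arms were included, and 5 arms were higher and 4 lower, with a median log2 ratio of 0.12 beside 0.13 for all 337. Of the 19 with an arm share, miR-125a was shifted toward -5p and miR-223, miR-142a and miR-27a toward -3p. miR-34a-5p, which p53 is known to induce, was higher at 148 and 316 CPM (2.13-fold, 1.97 to 2.31). miR-155-5p differed little, at 512 and 524 CPM. miR-214-3p had 63 counts in pOC and 20 in mOC and was 4.07-fold lower (2.43 to 7.11).

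Markers of other cell types moved with some of these groups. The 7 myeloid markers summed to 192098 CPM in pOC and 163480 in mOC, with 2 of them higher, and miR-21a-5p and miR-146a-5p carried most of that sum. Of the others on that list, miR-142a-5p, from a hairpin characteristic of blood cells and not of myeloid cells alone, had 5112 and 7261 CPM. miR-223-3p had 70.3 and 250 CPM. The 5 erythroid markers summed to 842 and 299 CPM, with 4 lower, among them miR-144-5p. The 4 liver or serum markers summed to 3842 and 1197 CPM, with 2 lower and miR-194-5p on the other side of 0 (log2 ratio 0.76). The 9 stromal markers summed to 1750 and 1657 CPM, with 5 lower. miR-199a-3p (4862 and 6687 counts) and miR-152-3p (1858 and 2913), neither of them called, carried most of that sum. Among the lower ones, miR-143-3p had 738 and 222 counts and miR-10b-5p 1102 and 553. The 6 epithelial markers summed to 77.2 and 154 CPM, with 3 higher. Platelet or endothelial markers summed to 153 and 95 CPM, lymphoid to 1335 and 1983, neural to 483 and 353, and muscle to 19.9 and 8.26. No included marker of these types was called with the totals. Of the 2 lymphoid markers only 1, miR-181a-5p, was included. miR-126a-5p (log2 ratio 0.27) and miR-9-5p (0.76, 72 and 158 counts) went against the sums of their types. No marker was at 0 in either library, and miR-124-3p was not analysed here. The part of other cells or of serum in the called miRNAs was not tested, and fewer cells of a type cannot be told apart from less RNA per cell.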

How the data were processed

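miRNA counts of 1 pOC and 1 mOC library were compared. The column headed OC was taken as the mOC sample. Raw counts per mature miRNA were deposited, per the file headers. The authors also deposited normalised counts, used here as a score to recover their scaling constants, a log2 fold change and an unadjusted p-value. Of the 75 included miRNAs that pass a 2-fold change and p under 0.05 in the authors' deposited table, 75 had the same call here. Both sets of calls rest on the same 2 libraries, so this match is not independent support. The authors' log2 fold change of let-7d-5p, pOC over mOC, was -1.47, beside 1.46 for mOC over pOC with the totals here. FastQC, HISAT2, StringTie and the build GRCm38 appear in the submitters' processing notes. The library kit, the miRNA annotation and the treatment of multiply matching reads were not given in the sources used.

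Counts were divided by the library totals (5430426 and 7017707). For log2 ratios, 1 pseudocount, in proportion to the library total, was added. Intervals of folds and shares are exact Clopper-Pearson 95% intervals. Intervals of arm odds are exact conditional, or normal on the log scale where all 4 counts reached 500. They cover counting error only, since the reads carry no stated molecular identifiers and may be copies. No test with replicates was possible with 1 library per group. The calculations were tested on simulated data.

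Arms were paired by name stem. Positions and sequences are from RefSeq GRCm38.p6 (306 of 337 matched, 26 with several loci), and hosts are from GENCODE annotation of GRCm38 on the same strand. The members, marker lists and hairpin list were chosen with earlier results of these data known. Named hairpins were those with a changed leading arm, and the 6 largest and 6 smallest called odds ratios with at least 20 minor-arm counts. The 10 most abundant of the 133 hairpins with an arm share were also named. So were the listed osteoclast hairpins and the called extremes of each arm and abundance class. Others named are single examples chosen after their values were seen. Alternatives covered scaling (edgeR 4.0.16 TMM, DESeq2 1.42.0 median ratio, the authors' constants, totals without the 5 most abundant), count minimums, pseudocounts, thresholds, the pairing of arms and the Dlk1-Dio3 region. Python 3.11.15, SciPy 1.17.1 and R 4.3.3 were used.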

Additional observations from a re-analysis of the deposited data

How the results depend on the processing

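No paired analysis was possible because each group had 1 library, and for the same reason no replicate could be left out. With the authors' constants as scaling, 64 miRNAs were higher. The median log2 ratios then were 0.47 for -5p, 0.36 for -3p, 0.36 for leading and 0.55 for minor arms, 0.48 from 100 to 1000 CPM and 0.38 at 1000 CPM or more. By host they were 0.26 with none, 0.46 for noncoding genes, 0.41 for exons and 0.48 for introns. The number of lower miRNAs was 67 with a minimum of 10 counts, 15 with 200, 17 with 50 in both libraries, 76 with no minimum and 23 without the Dlk1-Dio3 region. At a 1.5-fold threshold 84 were higher and 66 lower. With a minimum of 200 counts, 28 hairpins had both arms on the same side of 0. With an odds threshold of 1.5, 23 hairpins were shifted toward -3p. The cause of these moves was not tested beyond the change of setting itself. In the alternatives run, 18 to 26 hairpins were shifted toward -5p and 10 to 23 toward -3p, and 4 to 6 changed their leading arm. Leaving out hairpins that share counts, chosen after seeing the data, gave 19 and 12. Of the 337 miRNAs, 33 had another call and 43 another sign with the authors' constants, 7 and 14 with totals that leave out the 5 most abundant, 1 and 3 with median-ratio scaling, and 0 and 1 with TMM. miR-200a-3p, higher with the totals, was not called with median-ratio scaling. The 15 extremes by arm and abundance class kept their calls in these scalings and at 1.5-fold. Of the 40 hairpins named by rule, let-7g, miR-146a, miR-210 and miR-3068 became shifted at an odds threshold of 1.5. The median log2 ratio under 20 CPM turned to 0.12 with the authors' constants, and that from 20 to 100 CPM to -0.01 with totals that leave out the 5 most abundant. In each scaling the class limits were applied to the rescaled CPM, so a class can hold other miRNAs than with the totals. The moves of the class medians therefore mix the scaling with a change of membership. Depth limits the scarce arms: 3 counts, the limit that a count of 0 allows, are 0.552 CPM in pOC and 0.427 CPM in mOC.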
